A study of Mus musculus with 12 samples.

Results

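Caspases are the proteases that carry out apoptosis, and death receptors are the cell surface proteins that can start it. The 8 genes described here are the caspases Casp2, Casp6, Casp8 and Casp9, the apoptosome scaffold Apaf1, the death receptors Fas and Tnfrsf10b, and the Fas ligand Fasl. They were chosen by name, as the non-control probes whose gene name is one of these symbols. The array held 14 such probes among 41174 in all. Of the 8 genes, 6 had a probe that passed the filter on dim signals and could be tested, among 15826 tested genes.

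The RNA came from Leydig cells, the testosterone-making cells between the seminiferous tubules, cut by laser from frozen, stained testis sections of male C57BL/6J mice aged 21 weeks. The DEHP group had received di-(2-ethylhexyl)-phthalate, a plasticiser, in corn oil by gavage at 200 mg per kg per day for 21 days, and the vehicle group corn oil alone. Each DEHP mouse (numbers 1 and 4) was set against each vehicle mouse (numbers 1, 2 and 4) on two-colour Agilent arrays in both dye orientations, which gave 12 arrays from 5 mice. The mouse is the replicate (n = 2 DEHP, n = 3 vehicle), its RNA came from a single capture and was amplified for 2 rounds, and values are log2 relative to the mean of the 5 mice.

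In the receptor route to apoptosis, Fas ligand binds Fas, the adaptor Fadd joins the receptor, and caspase-8 is activated on the complex. In the mitochondrial route, cytochrome c released into the cytosol drives Apaf1 to assemble the apoptosome, which activates caspase-9. Both routes lead to executioner caspases, among them caspase-6, which cleaves nuclear lamins. In the testis, Fas on germ cells and its ligand have been studied in injury by phthalates.

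The arrays read each gene through 60-base probes, and the signal of a gene is that of its probe alone. The first 30 bases of the 7 member probes that passed the filter are shown in lower case, with no base set apart, because the values of the tested members come from them. Of the Fas probes, probe 1 stands for the gene.

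Casp2: ccaagtggtttgaagacttgctgccaaatt
Casp6: accaaaaagctgcatttctgtcccaaacct
Casp8: gtgaagaactgcgtttcctaccgagatcct
Casp9: catttcttacgtgatacactcttgtgttcc
Fas probe 1: caactcctggtgtgttctctttgccagcaa
Fas probe 2: ggagagactctttaaaatgaaaacacaata
Fasl probe 1: agggtgggtctacttactacctcacagagg

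On mouse assembly mm7, as given in the files, these probes lie at chr6:42225350-42225409 (Casp2), chr3:129752889-129752948 (Casp6), chr1:59095846-59095905 (Casp8), chr4:141194312-141194371 (Casp9), chr19:34028644-34028703 (Fas probe 1) and chr19:34010475-34010534 (Fas probe 2), all on the plus strand. Fasl probe 1 lies at chr1:161743675-161743734 on the minus strand. An annotation of mm7 was not used here, so exon, intron and UTR are not stated. The Casp9 probe had the lowest GC content of the 14 member probes, 26.7%, against up to 53.3% in the others. The Fas probes start 18.2 kb apart, and the 3 probes of Apaf1 span 77.3 kb between the first and the last start.

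Detection divided the members into bright and dim genes. Casp2, Casp6, Casp9 and Fas (through its probe 1) were well above background on 12 of 12 arrays in both groups. Casp8, the caspase of the receptor route, was above background on 4 of 12 arrays in the DEHP channel and 5 of 12 in the vehicle channel. Fasl probe 1 was above background on 3 of 12 and 4 of 12 arrays. Apaf1 was not well above background on any array in either channel through any of its 3 probes. Tnfrsf10b, the mouse receptor for the ligand Tnfsf10 (TRAIL), was above background on 1 to 3 of 12 arrays per group, depending on the probe, and did not pass the filter. Apaf1 and Tnfrsf10b were therefore not tested, and their low signal through these probes says nothing of the protein.

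**Figure D1:**
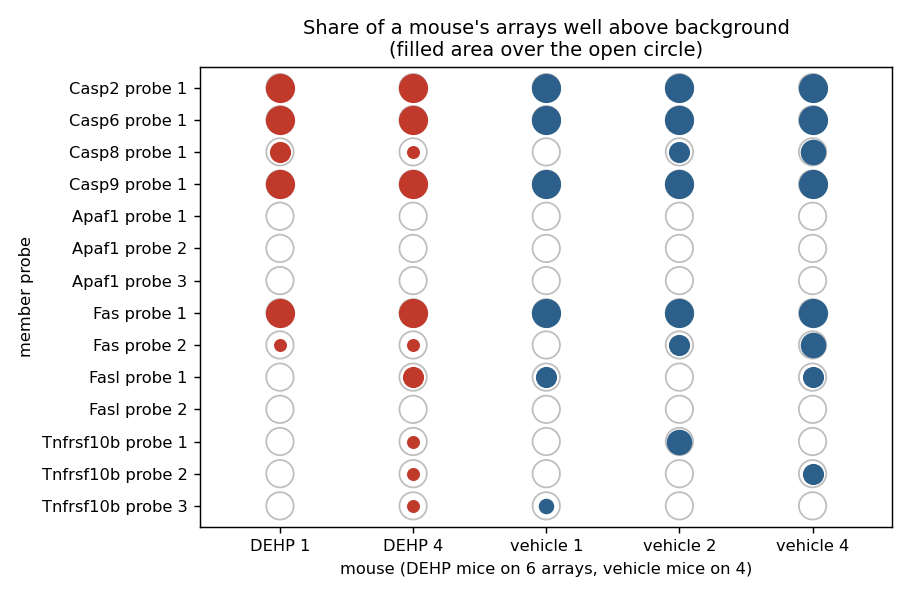
Each row is a member probe and each column a mouse; the filled area is the share of that mouse's arrays (6 per DEHP mouse, 4 per vehicle mouse) on which the probe was well above background, and the open circle is all of them. Casp2, Casp6, Casp9 and Fas probe 1 fill every circle, and the Apaf1 probes and Fasl probe 2 fill none.

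The first comparison asked whether DEHP changed these genes. None of the 6 tested members passed limma's adjusted p threshold of 0.05 in DEHP against vehicle mice, and the smallest adjusted p was 1.00. The background was the same, with 0% of the 15826 tested genes called. At limma's unadjusted p under 0.05 there were 0 members, against 136 genes or 0.859% of those tested. All 6 tested differences lay below 0, where 51.7% of the tested genes did, and their median was -0.16 against -0.01 over the tested genes. A rank test of 2 against 3 mice cannot give an exact two-sided p under 0.2 for a single gene.

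**Figure D2:**
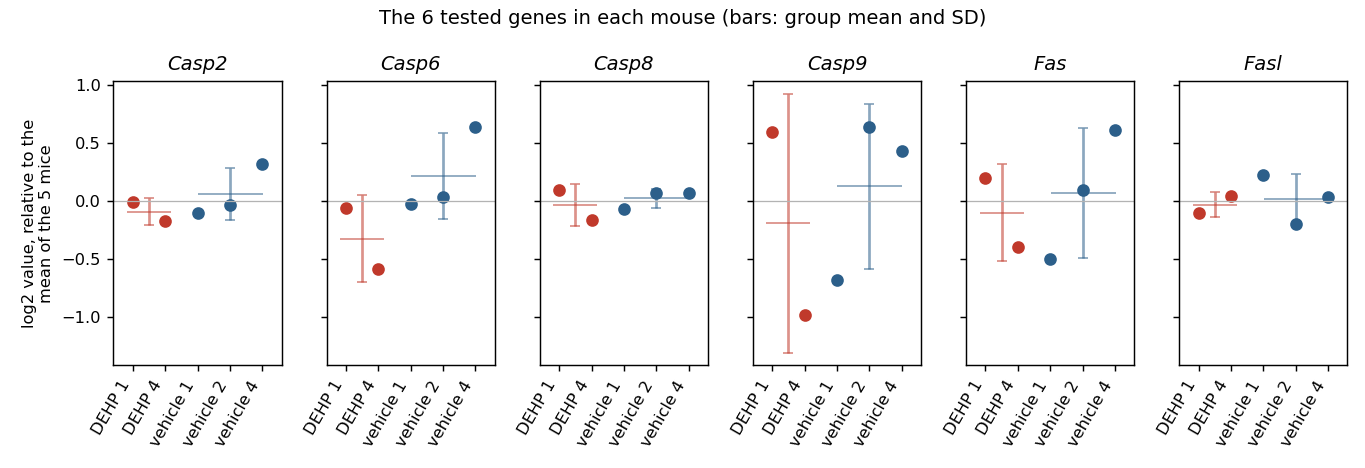
Each panel plots one tested gene as log2 values of the 5 mice relative to their mean (red, 2 DEHP mice; blue, 3 vehicle mice), with a horizontal bar at the group mean and a vertical bar of 1 SD. Casp6 is the panel in which both DEHP mice lie below the vehicle mice, and Casp9 has the widest spread, from -0.98 in DEHP mouse 4 to 0.64 in vehicle mouse 2.

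Among the receptors and ligands, Fas was measured on 10 spots per array. Its values were 0.19 in DEHP mouse 1, -0.40 in DEHP mouse 4, and -0.50, 0.10 and 0.61 in vehicle mice 1, 2 and 4. Both DEHP mice thus lay inside the range of the vehicle mice. The DEHP mean was -0.10 ± 0.42 (SD, n = 2) and the vehicle mean 0.07 ± 0.56 (SD, n = 3), a difference of -0.17 (SE 0.38; 95% interval -1.12 to 0.78; limma's adjusted p 1.00). In fold terms the interval runs from 0.459 to 1.72 times the vehicle level, so these mice set no narrow limit on a change of Fas.

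The sign of the Fas difference rested on single mice. Leaving out DEHP mouse 4 turned it to 0.13, and leaving out vehicle mouse 4 turned it to 0.10. On slides 1 and 2, which hold vehicle mice 1 and 2, it was 0.09 and 0.11, and on slide 3, which holds all arrays of vehicle mouse 4, it was -0.71. Vehicle mouse 4 and slide 3 cannot be told apart. The spots themselves agreed closely: the SD of the log2 ratio over the 10 spots of an array had a median of 0.0966 and ran from 0.063 to 0.236. All 6 pairs of mice had the same sign of the Fas ratio in both dye orientations, from 0.70 in DEHP mouse 1 over vehicle mouse 1 to -1.03 in DEHP mouse 4 over vehicle mouse 4. Fas probe 2 was above background on 2 of 12 DEHP and 5 of 12 vehicle arrays and differed by -0.07 (SE 0.19). It passed the filter only through vehicle mice 2 and 4, the mice where it was highest (0.07 and 0.15). Its difference is therefore no separate support for that of probe 1.

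**Figure D3:**
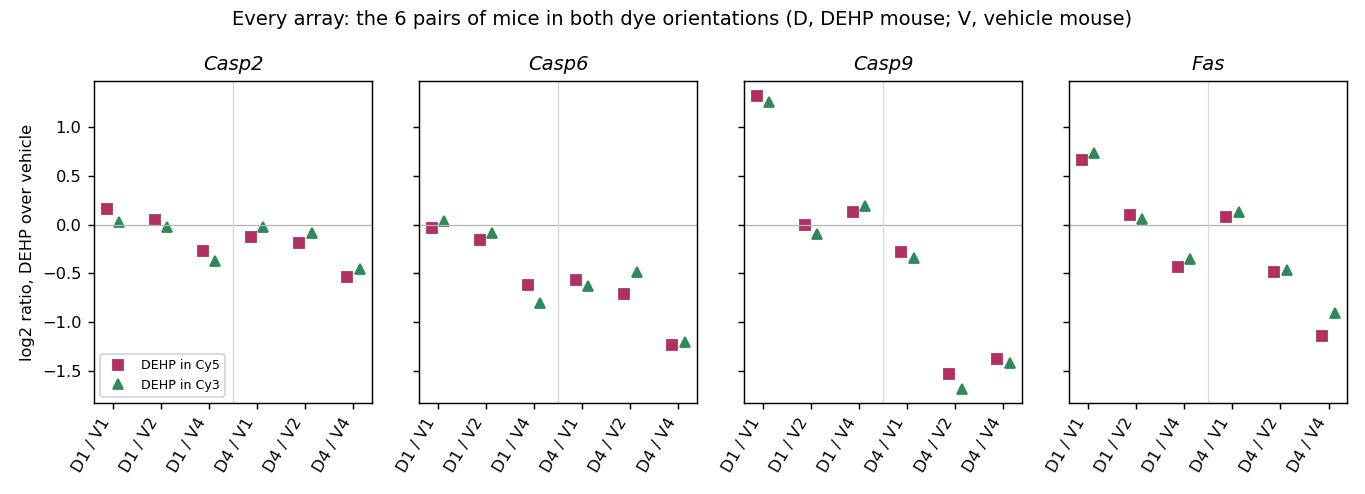
Each point is one array: the log2 ratio of a DEHP mouse (D) over a vehicle mouse (V), with squares for DEHP RNA in Cy5 and triangles for DEHP RNA in Cy3, for the 4 members above background on every array. For Casp9 and Fas both orientations of a pair lie on the same side of 0 in 6 of 6 pairs, and the pairs spread from 1.29 to -1.61 for Casp9.

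Fasl, the ligand of Fas, was close to the detection limit. With probe 1, DEHP mice 1 and 4 stood at -0.11 and 0.04, against 0.23, -0.20 and 0.04 for vehicle mice 1, 2 and 4, a difference of -0.05 (SE 0.22; 95% interval -0.59 to 0.48; limma's adjusted p 1.00). The groups overlapped. Leaving out DEHP mouse 1 turned the difference to 0.02, and leaving out vehicle mouse 1 turned it to 0.05. With the scanner's processed signals it was -0.34 (SE 0.51). The detection of its 10 repeat spots split the mice in another way. In DEHP mouse 1, 1 of 60 spots was above background, and in vehicle mouse 2, 1 of 40. In the other mice the counts were 27 of 60 (DEHP mouse 4), 25 of 40 (vehicle mouse 1) and 22 of 40 (vehicle mouse 4). Each group thus held a mouse with nearly no detected spot beside mice with many. Detection also depended on the dye: in vehicle mouse 1, 20 of 20 spots were above background in red and 5 of 20 in green. Fasl probe 2 was not above background on any array.

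Among the initiator caspases, Casp9, the caspase of the apoptosome, varied more between mice than the other members. Its values were 0.60 in DEHP mouse 1, -0.98 in DEHP mouse 4, and -0.68, 0.64 and 0.43 in vehicle mice 1, 2 and 4. One mouse of each group was low and the others were high, so the groups overlapped over nearly their whole range. The DEHP mean was -0.19 ± 1.11 (SD, n = 2) and the vehicle mean 0.13 ± 0.71 (SD, n = 3). The difference was -0.32 (SE 0.60; 95% interval -1.80 to 1.16; limma's adjusted p 1.00), and it was 0.47 without DEHP mouse 4. The SD over the 5 mice, 0.769, lay at percentile 95.2 of the tested genes, whose median SD was 0.297. The tested genes include dim ones, whose ratios the processing compresses. Casp9 was bright, and its percentile was not taken among genes of like brightness.

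The other initiator caspases are Casp8 and Casp2. For Casp8, DEHP mice 1 and 4 stood at 0.10 and -0.16, against -0.07, 0.07 and 0.07 for vehicle mice 1, 2 and 4, a difference of -0.06 (SE 0.20; 95% interval -0.54 to 0.43). With the scanner's processed signals it was -0.34 (SE 0.44). Its sign changed without DEHP mouse 4 (0.07). The Casp8 ratio had the same sign in both dye orientations in 2 of 6 pairs of mice. The dye effect of the Casp8 probe was 0.16 towards red (limma's adjusted p 0.0213). How many of all tested genes had a called dye effect was not counted, so this value is not ranked. Near background the log ratio is compressed, so a small difference of this probe bounds the change of the transcript poorly. Casp2, a caspase activated through the Pidd1 complex, was bright on every array and stood at -0.01 and -0.17 in the DEHP mice against -0.10, -0.03 and 0.32 in those on vehicle. Their difference came to -0.15 (SE 0.22; 95% interval -0.70 to 0.39). DEHP mouse 1 lay just above vehicle mice 1 and 2, DEHP mouse 4 lay lowest, and vehicle mouse 4 stood above the rest; without it the difference was -0.03.

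Casp6, the executioner caspase of the set, was the one member with no overlap between the groups. DEHP mice 1 and 4 stood at -0.06 and -0.59, below vehicle mice 1, 2 and 4 at -0.03, 0.03 and 0.64. The gap rested on a tie, since DEHP mouse 1 over vehicle mouse 1 averaged 0.00 over both dyes (-0.03 and 0.03). The difference was -0.54 (SE 0.30; 95% interval -1.29 to 0.21), or 0.409 to 1.16 times the vehicle level, with limma's unadjusted p 0.127 and adjusted p 1.00. Over the tested genes, 5.23% had both DEHP mice below every vehicle mouse and 3.94% had both above, so 1 member of 6 on the lower side and 0 on the upper side are no result about the members. Where groups do not overlap, leaving out a single mouse can hardly change the sign, so the kept sign of Casp6 is no further support. The Casp6 difference ran from -0.28 without DEHP mouse 4 to -0.80 without DEHP mouse 1. It was -0.37, -0.29 and -0.96 on slides 1, 2 and 3.

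Single mice of one group differed in several members. These contrasts, tested on the 12 arrays, compare single extracts and not treatments. In DEHP mouse 4 against DEHP mouse 1, limma called all 6 tested members, 5 lower and 1 higher; the background was 77.4% of genes called, 41.1% lower and 36.3% higher. Casp9 was lower by 2.98 times in DEHP mouse 4 (log2 -1.57, SE 0.04, adjusted p 3.65e-11) and Fas by 1.51 times (log2 -0.59, SE 0.04, adjusted p 1.17e-07). These sizes moved with the processing: Casp9 was at -0.81 with median centring in place of loess, and Fas at -0.26 with it, -1.03 with the scanner's processed signals and -0.32 as the mean of both probes. Casp6 differed by -0.53, and by -0.05 (adjusted p 0.659) with median centring. Casp2 differed by -0.16, a direction that turned to 0.47 with median centring, and Casp8 by -0.26, no longer called with median centring (adjusted p 0.177) or processed signals (adjusted p 0.102). The count of 6 called members fell to 4 with either of these. Casp8 was above background on 3 of 6 arrays of DEHP mouse 1 and on 1 of 6 of DEHP mouse 4, so its size in this contrast is rough.

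Among the vehicle mice, Casp9 and Fas differed most where vehicle mouse 1 was compared with the others. Vehicle mouse 1 against vehicle mouse 2 had 3 of 6 members called, 2 lower and 1 higher, against 71.0% of genes, 38.0% lower and 33.0% higher. Casp9 was lower by 2.49 times there and Fas by 1.52 times (log2 -0.60, and -1.03 with processed signals). Vehicle mouse 1 against vehicle mouse 4 had 5 of 6 members called, 4 lower and 1 higher, against 68.8%, 35.3% lower and 33.5% higher. Casp9 and Fas were each lower by 2.16 times in vehicle mouse 1, and Casp6 by 1.59 times. Fas (log2 -1.11) ranged there from -0.70 as the mean of both probes to -1.70 with processed signals. Vehicle mouse 2 against vehicle mouse 4 had 5 of 6 called, 4 lower and 1 higher, against 57.4%, 28.3% lower and 29.1% higher. Casp2, Casp6, Fas and Fasl were lower there in vehicle mouse 2. Casp9 was the gene called higher, by 0.21, which became -0.19 (adjusted p 0.233) with median centring.

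The gene called higher in the other 3 contrasts was Fasl. In vehicle mouse 1 against vehicle mouse 4 it differed by 0.19 (adjusted p 0.0284), a call lost with processed signals (0.172), median centring (0.195) and no filter (0.0508). It was above background on 3 of 6 arrays of DEHP mouse 4 and on 2 of 4 each of vehicle mice 1 and 4. It was not above background on any array of DEHP mouse 1 or vehicle mouse 2, so only rough folds can be given against those mice. Set against the detection limit of DEHP mouse 1, Fasl came out 1.06-fold higher in DEHP mouse 4. Against that of vehicle mouse 2, it came out 1.28-fold higher in vehicle mouse 1 and 1.11-fold higher in vehicle mouse 4. These folds were taken per channel after loess and between-array scaling, in mice whose dye orientations were balanced. The mean of the brighter mouse took in its arrays not above background. The limit was the lowest level of any probe well above background on the array, or the Fasl level where higher. The folds are therefore not strict lower bounds. Limma's adjusted p for these mouse pairs, in the same order, were 0.0301, 0.000161 and 0.0111. With processed signals the first and the last became 0.0834 and 0.233.

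Cell type markers moved with Casp9 and Fas. The labelled cell type was present, since 12 of 12 Leydig cell markers passed the filter, but so did 12 of 12 spermatid and 11 of 11 macrophage markers. The median of 12 Leydig cell markers was 0.67 in DEHP mouse 1, -0.74 in DEHP mouse 4, and -0.46, 0.22 and 0.40 in vehicle mice 1, 2 and 4. Casp9 was high in the same 3 mice and low in the same 2, and Fas was low in those 2 as well. The 11 macrophage markers, genes of the other main cell of the interstitium, had medians of 0.55, -0.71, -0.47, 0.03 and 0.47 in the same order. The same 2 mice had the lowest medians for 3 further somatic cell types. In the same order, the medians were 0.25, -0.22, -0.55, 0.28 and 0.03 for endothelial markers, 0.00, -0.68, -0.21, 0.70 and 0.18 for peritubular myoid markers, and -0.06, -0.20, -0.15, 0.16 and 0.18 for Sertoli cell markers. The part of RNA from any of these cell types in the Casp9 and Fas values was not tested. In bulk RNA of captured tissue, fewer cells of a type and less RNA per cell cannot be told apart. Between the groups, 3 of 12 Leydig cell markers lay above 0 and 9 below, with 0 past the threshold. The log2 of their summed level came to 17.63 and 16.06 for the DEHP mice, against a vehicle range of 16.35 to 17.61. For macrophage markers, 4 of 11 lay above 0, and the log2 summed level came to 16.78 and 14.95 against a vehicle range of 15.45 to 16.91.

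Spermatid markers ran the other way. DEHP mice 1 and 4 had medians of 0.00 and 0.83, against 0.30, -0.65 and -0.42 for vehicle mice 1, 2 and 4; 11 of 12 lay above 0 between the groups and 0 passed the threshold. The log2 of their summed level came to 19.09 and 19.41 for the DEHP mice, against a vehicle range of 18.20 to 18.82. In 2 of the 12, Prm1 and Tnp1, both DEHP mice lay above every vehicle mouse, and in 0 below. Of the tested genes, 3.94% lay above in this way and 5.23% below. Both were also at limma's unadjusted p under 0.05, against 0.859% of the tested genes. DEHP mouse 4 and vehicle mouse 1 had the highest spermatid marker medians, the lowest Leydig cell medians, and the lowest Casp9 and Fas. Fasl was highest in vehicle mouse 1, followed by DEHP mouse 4 and vehicle mouse 4. Of 12 markers of T and NK cells, known sources of Fasl, 5 passed the filter, with medians from -0.10 to 0.10; Prf1, Gzma, Gzmb, Ncr1, Cd2, Cd4 and Cd3g did not pass. The log2 of the summed level of the 5 was 9.09 and 8.99 for DEHP mice, against a vehicle range of 8.83 to 9.05. Cd3d, a T cell receptor subunit, was above background on 12 of 12 arrays in both groups, at 0.02 and 0.42 for DEHP mice 1 and 4 against 0.24, -0.43 and -0.25 for vehicle mice 1, 2 and 4. The other tested markers of this list went the other way from Cd3d in DEHP mouse 4 and vehicle mouse 1. Cd3e, Cd8a, Lck and Klrd1 stood at -0.10, -0.39, -0.03 and -0.37 in DEHP mouse 4. In vehicle mouse 1 they stood at -0.06, -0.03, -0.02 and -0.20. The part of these cells in the member values was not tested.

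**Figure D4:**
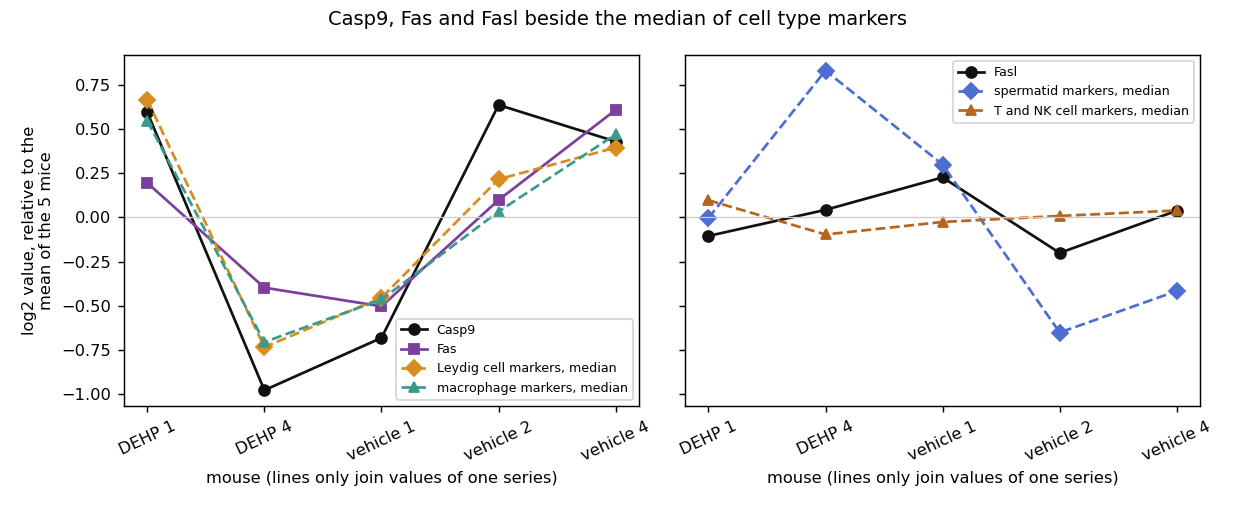
Values of the 5 mice (x axis) on a log2 scale relative to their mean (y axis), for Casp9 and Fas with the medians of 12 Leydig cell and 11 macrophage markers (left), and for Fasl with the medians of 12 spermatid and 5 T and NK cell markers (right). Casp9, Fas, Leydig cell and macrophage values are all below 0 in DEHP mouse 4 and vehicle mouse 1, and the spermatid median is highest in DEHP mouse 4 at 0.83.

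Spermatocyte markers had medians of -0.23, 0.21, 0.26, -0.13 and -0.20 over the mice in the same order, and between the groups 5 of 9 lay below 0 (median -0.04). Of 11 Sertoli cell markers 9 lay below 0 (median -0.24), as did 6 of 8 endothelial (median -0.09) and 5 of 6 peritubular myoid markers (median -0.48). Of the endothelial markers below 0, Pecam1 was above background on 0 of 12 DEHP and 5 of 12 vehicle arrays. It thus passed the filter through vehicle mice alone. None of these lists held a gene past the threshold.

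For each tested member the gene with the most similar profile was named, as the smallest root mean square difference over the 5 mouse values among 13411 genes with a symbol. For Casp9 this was Adh1, an alcohol dehydrogenase, at 0.036. Its DEHP values were 0.60 and -1.0, and its vehicle values -0.71, 0.62 and 0.50. For Fas it was Gpr137b, a lysosomal membrane protein, at 0.047. For Casp6 it was Sumo2, a ubiquitin-like modifier, at 0.049. For Casp2 it was Txndc5, a disulfide isomerase of the endoplasmic reticulum, at 0.022. The neighbours of Casp8 (Kcng1, 0.016) and Fasl (Dennd6b, 0.013) were close in members that themselves varied little. A likeness over 5 values describes these mice and no more.

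The other genes of the pathway were taken from a list. Of 72 listed genes, 71 were on the array and 56 were tested; 25 of them lay above 0, 31 lay below, and 0 passed the threshold; their median was -0.04. In 3 of them both DEHP mice lay above all vehicle mice, and in 5 below, where 3.94% and 5.23% of the tested genes did. From each group of the list the 2 genes of lowest p are named, since none passed.

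Of the other death ligands and receptors, 8 of 14 were tested, 4 above 0 and 4 below. Tnfsf10, the TRAIL ligand of Tnfrsf10b, differed by -0.66 (SE 0.29), and Tnfrsf25, a death domain receptor, by -0.59 (SE 0.72). Tnfsf10 was above background on 6 of 12 DEHP and 11 of 12 vehicle arrays, and its DEHP mice lay at -0.28 and -0.51 below vehicle mice at 0.015, 0.73 and 0.04. Of the adaptors and regulators of the receptor complex, 20 of 20 were tested, 10 above 0 and 10 below. Ripk3, the kinase of necroptosis, differed by -0.54 (SE 0.24), and Dedd2, a death effector domain protein, by -0.70 (SE 0.31). Both had the DEHP mice below every vehicle mouse, though in Dedd2 DEHP mouse 1 (-0.17) and vehicle mouse 4 (-0.16) were nearly level. Fadd, the adaptor between Fas and Casp8, was bright on every array and differed by -0.15 (SE 0.20). Its DEHP mice, at -0.11 and -0.07, also lay below every vehicle mouse, though vehicle mouse 4 was close at -0.04.

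Of the partners of the mitochondrial route, 9 of 9 were tested, 2 above 0 and 7 below, with a median of -0.10. Cycs, the somatic cytochrome c, differed by -0.47 (SE 0.42) and the protease Htra2 by -0.30 (SE 0.28). Of the other caspases, 5 of 6 were tested, 2 above 0 and 3 below. Casp12 differed by -0.20 (SE 0.36) and Casp4 by 0.22 (SE 0.63). Of the inhibitors of apoptosis proteins, 5 of 11 were tested, 2 above 0 and 3 below. Birc2 (cIAP1) differed by 0.52 (SE 0.32) and Birc5 (survivin), a protein of dividing cells, by 0.37 (SE 0.29).

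Of the caspase substrates and effectors, 9 of 12 were tested, 5 above 0 and 4 below. Rock1, a kinase that drives blebbing of the membrane once caspases cut it, was the one pathway gene at an unadjusted p under 0.05. DEHP mice 1 and 4 stood at 0.27 and 0.68, above vehicle mice 1, 2 and 4 at -0.40, -0.075 and -0.48. The difference was 0.79 (SE 0.24; 95% interval 0.20 to 1.39; limma's unadjusted p 0.0177, adjusted p 1.00). Both DEHP mice lay above every vehicle mouse, as they also did for Acin1, a chromatin condensation factor, at 0.42 (SE 0.21). At that p, 1 of 56 pathway genes stands beside 0.859% of the tested genes.

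**Figure D5:**
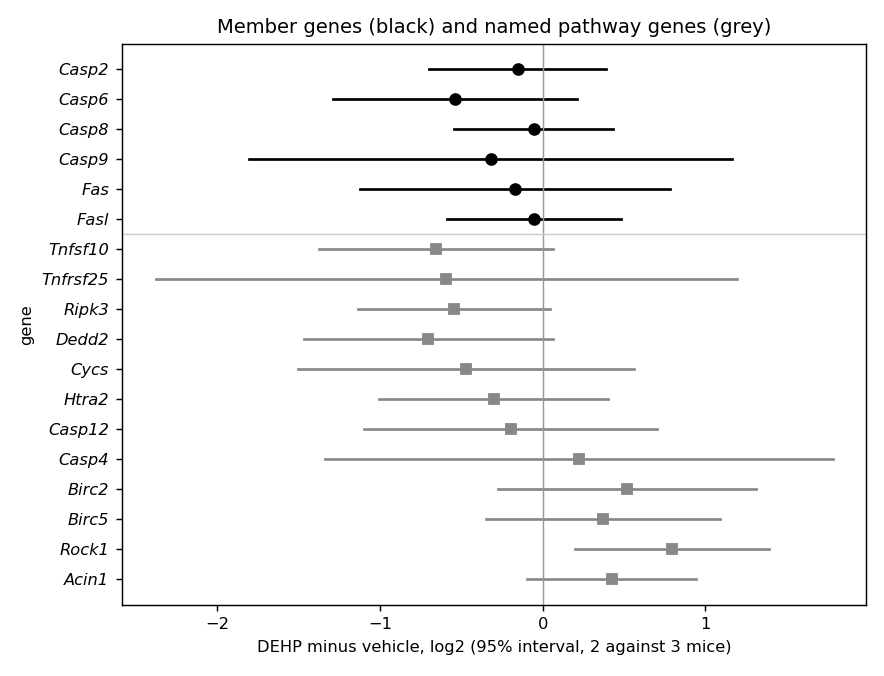
Difference between DEHP and vehicle mice (x axis, log2) with its 95% interval from limma on 2 against 3 mice, for the 6 tested members (black circles) and the 12 named pathway genes (grey squares). Every member interval contains 0, the Casp9 interval from -1.80 to 1.16 is the widest of the members, and Rock1 is the named gene whose interval lies above 0, before adjustment.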

How the data were processed

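RNA of laser-captured Leydig cells from 5 mice was compared on 12 two-colour arrays on 3 slides: slides 1 and 2 hold vehicle mice 1 and 2 (one dye orientation each), slide 3 vehicle mouse 4 (both). The labels' protocols speak of 4 mice per group; the others are not analysed here.

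Per the file headers, the deposited scanner files hold spot intensity (mean signal, local background, and signals processed by Feature Extraction 9.5.1.1), a log10 ratio of red over green used only to check directions, and flags of 0 or 1. The deposited value table holds log2 ratios by the authors for 13669 spots, among them 4 member probes. Its rows were matched by the spot's place in the scanner files, where it correlated with the scanner's ratios at 0.915 to 0.993 with slopes of 0.842 to 0.932; it ran as DEHP over vehicle, column medians were -0.06 to 0.00, and how it was filtered and normalized is not known. limma is named in the submitters' processing notes. Files give positions on mm7.

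Here, in R 4.3.3 with limma 3.58.1, signals were background-corrected (normexp, offset 50), which compresses ratios of dim probes, and loess-normalized within arrays. Control and outlier spots were left out and spots of a probe averaged. From the 12 log ratios, least squares gave each mouse's value and the dye effect of a probe. Probes were kept if at least 2 mice had them well above background on 50% or more of their arrays, and the brightest stood for the gene. Per array, 45.4% to 54.4% of red and 35.5% to 46.1% of green spots were well above background; the numbers of mice and arrays limit the precision. The group comparison took the 5 mouse values through lmFit and eBayes, with 3 residual degrees of freedom, adjusted over all 15826 genes (Benjamini-Hochberg, threshold 0.05); functions were tested on simulated data. Single mice were compared on the 12 arrays. Symbols came from RefSeq accessions (10547 genes), current symbols (1894), older symbols (971) or the files (2414).

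The members, gene lists and tests were chosen with earlier results of these data known. Named are all members, in each pathway group the genes past the threshold or else the 2 of lowest p, and the nearest gene of each tested member; Fadd and the markers named (Cd3d among them) were added after their values were seen. Alternatives covered background, normalization, filter, probe choice, dye, slide, block by mouse number, left-out mice and the value table.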

Additional observations from a re-analysis of the deposited data

How the results depend on the processing

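None of the 6 tested members, and no gene of the pathway list or of the whole array, passed the threshold between DEHP and vehicle mice under any alternative run with a test. At an unadjusted p under 0.05, limma gave 136 genes. Without a block or a left-out mouse the count ran from 64 with the value table to 436 with no filter on dim probes. With single vehicle mice left out it ran from 53 to 524. The value table and the run with no filter tested other numbers of genes than 15826, so these counts are not shares of the same total. Leaving out a mouse gave ranges of -0.24 to -0.03 for Casp2, -0.80 to -0.28 for Casp6, -0.19 to 0.074 for Casp8, -1.11 to 0.47 for Casp9, -0.47 to 0.13 for Fas and -0.16 to 0.05 for Fasl, and of -0.13 to 0.046 for the pathway median; with a lone DEHP mouse, its spread is taken from the other group. Slide 3 alone gave -0.41 for Casp2, -0.96 for Casp6 and -0.71 for Fas, and slide 1 alone gave a pathway median of 0.092; these have no test, and the cause was not tested. The authors' deposited table, which lacks Casp8 and Fasl, gave -0.15 for Casp2 (8 of 12 arrays), -0.61 for Casp6 (11), -0.32 for Casp9 (10) and -0.23 for Fas (12). Mice 1 and 4 occur in both groups, but nothing in the labels pairs them. Over the tested genes, the deviations of same-numbered mice from their group means had r -0.73 and -0.56. The deviations of the 2 DEHP mice mirror each other by construction, so these r cannot decide whether the mice were paired. With the replicate block, Casp2 differed by -0.20, Casp6 by -0.63, Casp8 by -0.03, Casp9 by -0.07, Fas by -0.15 and Fasl by -0.16, 14 genes had an unadjusted p under 0.05, and no call changed. Vehicle mouse 2 shares its number with no DEHP mouse, so the block takes it out of the difference. The 6 differences therefore equal those without vehicle mouse 2 and are no separate alternative. Between single mice, processed signals turned Casp2 in vehicle mouse 1 against 2 to 0.01 and Casp8 in vehicle mouse 2 against 4 to -0.51; median centring turned Casp2 in DEHP mouse 4 against 1 to 0.47, and Casp8 and Casp9 in vehicle mouse 2 against 4 to -0.13 and -0.19. Fasl in DEHP mouse 4 against 1, called as reported, had an adjusted p of 0.0538 with no filter. A dye effect per slide could not be fitted, because slides 1 and 2 carry one orientation each (rank 6 of 7 columns). Processed signals gave -0.34 for both Casp8 and Fasl between the groups. Low signal over background limits Casp8, Fasl and Fas probe 2, and for Apaf1 and Tnfrsf10b no difference was detectable at this signal.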
